A study of Mus musculus with 7 samples.

Results

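The radial glia of the embryonic mouse dorsal forebrain that the submitters' clustering put under label 12 were compared with those it put under label 1, within the same sample and therefore at the same embryonic stage. Members were chosen by deposited cluster label alone: 606 of the 10261 cells in the matrix, of which 55 carried label 12 (20 at E14.5 and 35 at E15.5) and 551 carried label 1 (500 at E14.5 and 51 at E15.5). The cells came from dissociated dorsal forebrain of CD-1 mouse embryos, an outbred stock, and were captured by Drop-seq, a droplet method that tags each mRNA molecule with a unique molecular identifier (UMI). The labels give no allele, agent, sort or number of embryos for any sample. The E14.5 sample compared is replicate 1, the larger of 2 at that stage, and every other stage has 1 sample. A working name for the comparison sets gliogenic (label 12) against neurogenic (label 1) radial glia, and that name was checked against markers before any other result.

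Radial glia are the stem cells of the developing cortex. They divide at the ventricular surface, give rise to projection neurons directly or through intermediate progenitors, and later turn to making astrocytes and oligodendrocyte precursors. Proneural factors such as Neurog2 accompany the neurogenic phase, nuclear factor I and Sox9 proteins prepare astrocyte genes for use, and Olig1, Olig2 and Egfr mark progenitors that have entered the glial phase. A cell late in this sequence is usually also a cell from an older embryo, so state and stage are hard to separate unless both kinds of cell are read in the same sample.

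UMI counts were summed per label and sample, which gave 60401 UMIs (label 12) and 887499 UMIs (label 1) at E14.5, and 174555 UMIs (label 12) and 116731 UMIs (label 1) at E15.5. Levels are in CPM, UMIs of a gene per 1000000 UMIs, over totals scaled by TMM. A count of 3 UMIs corresponded to 48.24 CPM (E14.5) and 17.76 CPM (E15.5) in label 12, against 3.299 CPM (E14.5) and 26.23 CPM (E15.5) in label 1. Label 12 cells were the deeper ones, with a median of 2647.5 UMIs at E14.5 and 4440 UMIs at E15.5, against 1450.5 and 1685 UMIs in label 1 cells. The median mitochondrial share of UMIs was 2.07% at E14.5 and 6.87% at E15.5 in label 12, against 2.102% and 6.75% in label 1, so it moved with the sample and hardly with the label. The 2 stages also differ in library, and stage, library and mitochondrial share cannot be told apart here. No member shared its cell barcode with a cell of another library. Because the clustering that made the labels used the expression of these same cells, every label 12 to label 1 difference below is a description: the fit's threshold serves only to sort and count genes ("called" means past it), nothing is read from those counts, and no gene's p-value is printed for it.

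Label 12 had no cell in the early samples and made up most of the cells of both labels in the late ones. Among cells of labels 12 and 1, label 12 made up 0 of 41 cells at E10.5 (95% exact binomial interval up to 8.60%) and 0 of 497 cells at E12.5 (up to 0.739%). It made up 3.85% in E14.5 replicate 1 (interval 2.36 to 5.88%) and 16.4% in E14.5 replicate 2 (7.77 to 28.8%). The share was 40.7% at E15.5 (30.2 to 51.8%), 92.1% at E16.5 (78.6 to 98.3%) and 97.0% at E18.5 (93.2 to 99.0%). E14.5 and E15.5 were thus the stages at which both labels could be read side by side, and the E14.5 replicates themselves did not have overlapping intervals. These and all later intervals cover counting error only, not the spread between embryos.

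**Figure D1:**
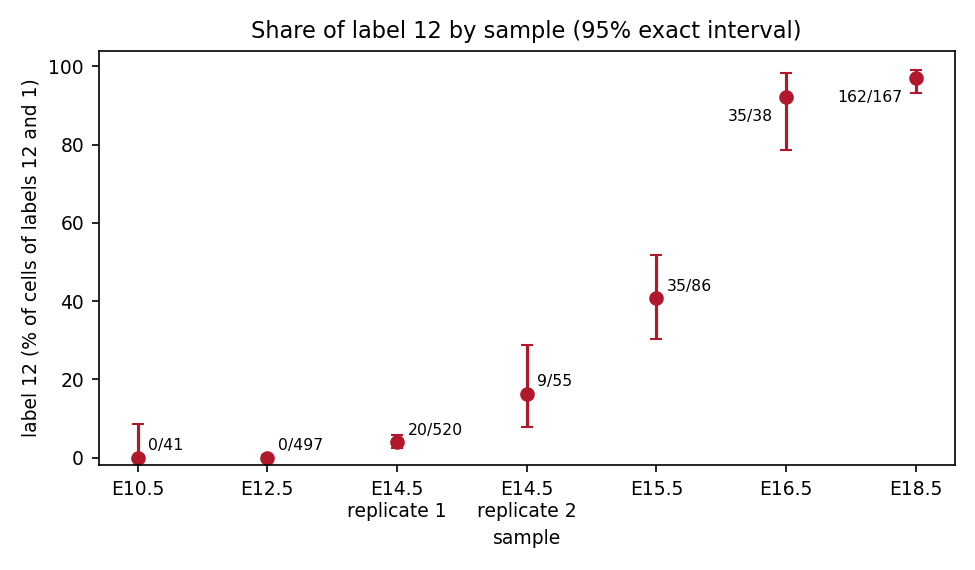
Cells of label 12 as a percentage of all cells of labels 12 and 1 (y axis), by sample (x axis, young to old). Points are samples, bars are 95% exact binomial intervals and the numbers are label 12 cells over cells of both labels; no label 12 cell was found before E14.5, and the share reached 97.0% in the oldest sample.

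The gliogenic name was not settled for the label 12 cells of the 2 compared samples. In them, 5 markers of the oligodendrocyte lineage and of glial progenitors had no UMI, while astrocyte genes, given below, leaned higher than in label 1. Olig1 and Olig2, basic helix-loop-helix factors of the oligodendrocyte lineage, Egfr, a growth factor receptor of glial progenitors, Pdgfra, the receptor of oligodendrocyte precursors, and Sox10, a factor of the committed lineage, all had 0 UMIs in label 12 at E14.5 and at E15.5. At 3 counts, that allows up to 48.24 CPM at E14.5 and 17.76 CPM at E15.5 for each of them. Egfr, found in label 12 at E16.5, stood at 26.13 CPM there without TMM scaling, which is below the E14.5 bound. In label 1 the same 5 genes had 0 UMIs except for Olig1, with 2 UMIs at E14.5 in 1 of 500 cells. Of the 15 measured genes of the oligodendrocyte lineage list, 7 had 0 UMIs in all 4 sums. Gsx2 and Dlx2, factors of ventral progenitors and of interneurons, were also at 0 in all 4 sums, and no label 12 cell of these 2 samples carried a UMI of the Dlx or Gad genes tested; in E14.5 replicate 2, 1 of 9 did. The cells are therefore called by their label below, and by the genes that set them apart, among them Tnc and Apoe.

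Tnc was the clearest of these genes. It encodes tenascin C, an extracellular matrix glycoprotein of late and outer radial glia, and lies at chr4:63959785-64047015 on the minus strand (mm10). Tnc stood at 369.8 CPM at E14.5 and 568.4 CPM at E15.5 in label 12, against 60.49 CPM and 139.9 CPM in label 1. The lower label 12 value was above the higher label 1 value, so the labels did not overlap across stages. With 2 values per label such a separation is weak, and the share of all tested genes that have it was not counted. The same holds for each gene below. The ratio was 6.11 at E14.5 (95% exact counting interval 3.59 to 10.1) and 4.06 at E15.5 (2.38 to 7.39). The paired log2 difference was 2.33 ± 0.30 (SE of the fit, 2 pairs). Here and below, an SE is the fitted log2 value over the square root of the F statistic of the edgeR fit. That fit borrows dispersion across genes, so the SE is not the spread between the 2 pairs. Its distance varied between libraries: without TMM scaling, Tnc was at 178.5 CPM in label 12 and 70.76 CPM in label 1 in one E14.5 library, and at 634.6 and 50.17 CPM in the other. In the E15.5 libraries it was at 778.4 CPM in label 12 and 101.7 CPM in label 1, and at 268.5 and 247.7 CPM, where the last value rests on 7 UMIs. Tnc was above label 1 in each of the 4 libraries, by a margin that was small in one of them.

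Apoe, which encodes the apolipoprotein E that carries lipid between brain cells and is made mainly by astrocytes in the adult, lies at chr7:19696109-19699188 on the minus strand (mm10). Apoe had 418.1 CPM at E14.5 and 219.1 CPM at E15.5 in label 12, against 54.99 CPM and 78.69 CPM in label 1. These groups did not overlap either, and the ratio was 7.603 at E14.5 (4.54 to 12.5) and 2.78 at E15.5 (1.32 to 6.56), with a paired log2 difference of 2.44 ± 0.39 (SE, 2 pairs). All 4 libraries had more Apoe in label 12, the closest being 238.7 CPM in label 12 and 90.43 CPM in label 1. Tnc and Apoe were the 2 genes past an adjusted p of 0.05 in edgeR's quasi-likelihood fit with the sample as a block, of 3439 genes tested (0.0582% higher, 0 lower). With the replicate block dropped, 5 genes were past it. DESeq2 with the block put 1 gene past it as higher and 0 as lower, and Apoe was not the one. At an unadjusted p under 0.05 the edgeR fit had 138 genes higher and 114 lower, and it had 1 residual degree of freedom. With the 4 sums thinned to the smallest total, no gene was past it, Tnc included, with a log2 difference of 1.906.

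A further set of radial glial and secreted proteins, picked after their values were seen except for Hopx, was higher in label 12 in both samples without being called. Hopx, a homeodomain protein used as a marker of outer radial glia, lies at chr5:77086988-77115121 on the minus strand (mm10). It had 321.6 CPM at E14.5 and 355.3 CPM at E15.5 in label 12, against 138.6 CPM and 122.4 CPM in label 1, a log2 difference of 1.35 ± 0.30. Hopx hardly differed between stages within a label, and the labels were well apart. Mfge8, a secreted protein that bridges dying cells to phagocytes, had 321.6 and 473.7 CPM in label 12, against 135.3 and 201.1 CPM in label 1 (log2 difference 1.24 ± 0.28). Its lowest label 12 value was above its highest label 1 value. Tgfb2, a ligand of the TGF-beta pathway, had 273.4 and 219.1 CPM in label 12, against 114.4 and 87.43 CPM in label 1. Vcam1, an adhesion protein of quiescent and outer progenitors, had 257.3 and 130.3 CPM in label 12, against 94.58 and 52.46 CPM in label 1. Ptx3, a secreted pentraxin, had 128.6 and 106.6 CPM in label 12, against 16.5 and 34.97 CPM in label 1. Mest, an imprinted gene, had 128.6 and 195.4 CPM in label 12, against 53.89 and 69.95 CPM in label 1. None of these 4 genes had overlapping labels, but each was at least 2-fold higher in both samples and was picked after its values were seen. The counting interval of the ratio reached below 1 for Vcam1 at E15.5 (0.98 to 7.49) and for Mest at E14.5 (0.98 to 5.08).

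Cd9, a tetraspanin of the cell surface, shows how few molecules some of these values hold. It had 241.2 CPM at E14.5 and 94.74 CPM at E15.5 in label 12, against 64.88 CPM and 26.23 CPM in label 1, with a log2 difference of 1.88 ± 0.48. Of the 15 Cd9 UMIs of label 12 at E14.5, 9 came from 1 cell. In the other E14.5 library, Cd9 had 1 UMI in label 12 (37.33 CPM) and stood at 63.37 CPM in label 1. The E14.5 value therefore rested on 1 library. At E14.5, Tnc, Apoe, Hopx and Mfge8 were less concentrated, with at most 5 UMIs in any label 12 cell. At E15.5, 1 label 12 cell held 14 of the 96 Tnc UMIs, and 1 held 8 of the 37 Apoe UMIs. The most in 1 cell there was 9 of 60 UMIs for Hopx, 9 of 80 for Mfge8 and 4 of 16 for Cd9.

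**Figure D2:**
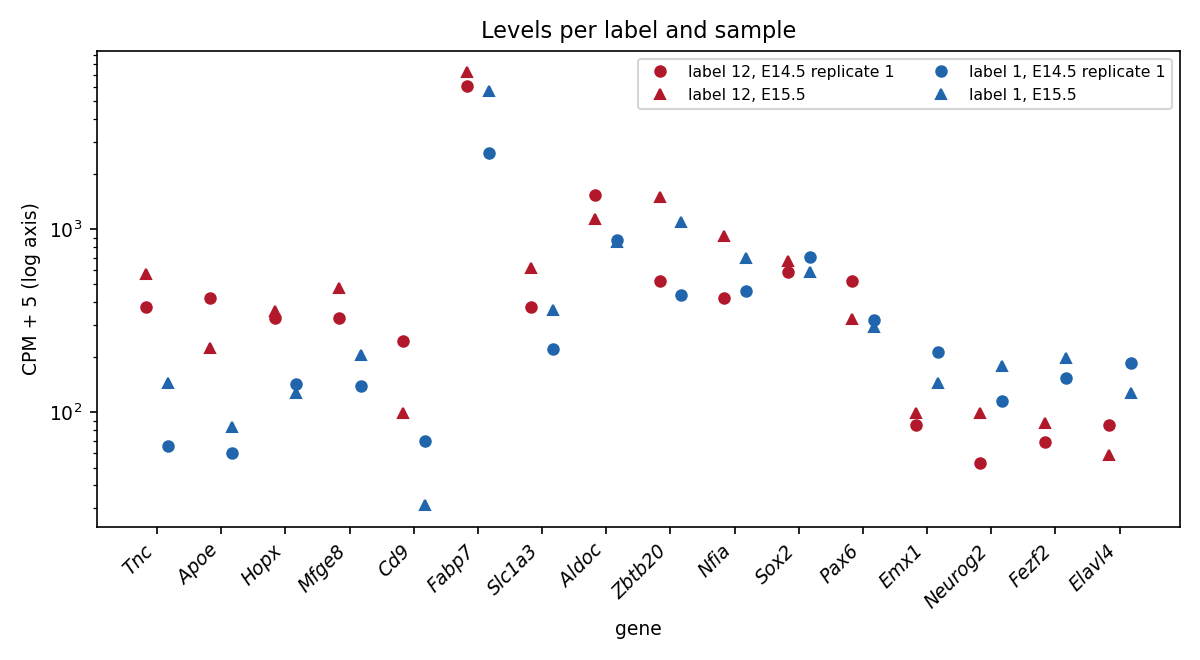
CPM plus 5 on a log axis (y) for 16 genes (x), with label 12 in red and label 1 in blue, circles for E14.5 replicate 1 and triangles for E15.5. Each point is the sum of all cells of that label in that sample; Tnc, Apoe, Hopx and Mfge8 separate by label, Zbtb20 and Nfia separate by stage, and Emx1, Neurog2, Fezf2 and Elavl4 are lower in label 12.

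Astrocyte genes leaned the same way as a list. Of 31 measured members 14 passed the filter on low counts, and 11 of the 14 were above label 1 in both samples and 1 below in both; their median log2 difference was 0.71, against -0.004303 over all genes tested. Only Apoe among them was called. Aldoc, a glycolytic enzyme of astrocytes and their precursors, had 1528 and 1131 CPM in label 12, against 873.2 and 848.1 CPM in label 1 (log2 difference 0.62 ± 0.18). Slc1a3, a glutamate transporter of radial glia and astrocytes, had 369.8 and 609.9 CPM in label 12, against 216.6 and 358.5 CPM in label 1 (0.77 ± 0.25). For both genes the label 12 value was higher within each stage, and for Slc1a3 the values across stages nearly met. Fgfr3, a fibroblast growth factor receptor of progenitors and astrocytes, was the exception, with 80.4 and 106.6 CPM in label 12, against 90.18 and 166.1 CPM in label 1.

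The list of late and outer radial glia, which holds Tnc, Hopx and Cd9, had 9 of 16 members tested, 7 above and 1 below label 1 in both samples and a median log2 difference of 0.55. The member below was Rlbp1, a retinoid-binding protein, with 193 and 254.6 CPM in label 12, against 201.3 and 271 CPM in label 1. Ptn, the secreted growth factor pleiotrophin, was its most abundant tested member, with 2235 and 2712 CPM in label 12, against 1342 and 2081 CPM in label 1. The matrix and proteoglycan list had 7 of 25 members tested, 4 above in both samples and 0 below in both, with a median of 0.87. Sparc, a matrix-binding glycoprotein, had 643.2 and 296.1 CPM in label 12, against 227.6 and 236.1 CPM in label 1, a difference that was wide at E14.5 and narrow at E15.5. Genes common to radial glia of any age sat closer together: 19 of 22 were tested, 11 were above and 2 below in both samples, and the median was 0.20. Fabp7, the brain fatty acid binding protein and one of the most abundant radial glial transcripts, had 6046 and 7189 CPM in label 12, against 2612 and 5683 CPM in label 1. Its ratio was 2.31 at E14.5 (2.07 to 2.58) and 1.26 at E15.5 (1.15 to 1.39), so the distance was much larger in the younger sample. The paired log2 difference of Fabp7 was 0.77 ± 0.16, which did not pass the call rule. In one E15.5 library Fabp7 stood at 6994 CPM in label 12 and 7006 CPM in label 1, without TMM scaling.

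Metallothioneins, metal-binding proteins, were above label 1 in both samples for 3 of 3 members, and Mt3, the form of the nervous system, was the most distant. Mt3 had 514.6 and 527 CPM in label 12, against 182.6 and 271 CPM in label 1 (log2 difference 1.24 ± 0.26, not called). Mt1 and Mt2 differed by 0.15 and 0.26.

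Transcription factors tied to the gliogenic switch did not separate the labels. Of 22 listed factors 15 were tested, 4 were above and 4 below label 1 in both samples, none was 2-fold apart in both, and the median log2 difference was 0.06. Nfia, a nuclear factor I protein needed for astrocyte formation, had 418.1 CPM at E14.5 and 917.8 CPM at E15.5 in label 12, against 456.4 and 690.7 CPM in label 1 (0.20 ± 0.22). Nfib, its close relative, had 1479 and 1747 CPM in label 12, against 1495 and 1609 CPM in label 1 (0.06 ± 0.16). Sox9, an HMG-box factor of neural stem cells and astrocytes, had 771.9 and 580.3 CPM in label 12, against 686.2 and 515.8 CPM in label 1 (0.17 ± 0.21). Each of these differences was about as large as its SE from the fit or smaller. Zbtb20, a zinc finger repressor of late cortical progenitors, had 514.6 and 1498 CPM in label 12, against 433.3 and 1093 CPM in label 1 (0.38 ± 0.19). In these 2 samples, E15.5 exceeded E14.5 in both labels by far more than label 12 exceeded label 1. From E14.5 replicate 2 the distance between stages was smaller. Without TMM scaling, Zbtb20 was there at 964.2 CPM in label 12 and 629 CPM in label 1, against 1449 and 1071 CPM at E15.5. Id3, an inhibitor of helix-loop-helix factors, was the listed factor with the largest difference, at 209 and 254.6 CPM in label 12, against 106.7 and 113.7 CPM in label 1.

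Stem cell and patterning genes were also close. Sox2, a factor that keeps neural stem cells in the progenitor state, had 578.9 and 663.2 CPM in label 12, against 698.3 and 577 CPM in label 1 (-0.02 ± 0.21). Pax6, the paired-box factor of dorsal radial glia, had 514.6 and 319.8 CPM in label 12, against 316.7 and 288.5 CPM in label 1 (0.45 ± 0.26). Hes5, a Notch effector that restrains neurogenesis, had 1431 and 639.5 CPM in label 12, against 1793 and 725.7 CPM in label 1 (-0.26 ± 0.18). Hes5 differed more between the stages than between the labels. The 13 tested genes of dorsal cortical patterning had a median of 0.06, with 2 above and 5 below label 1 in both samples. Emx1, a homeobox gene of dorsal progenitors and their neurons, was among those below, with 80.4 and 94.74 CPM in label 12, against 208.9 and 139.9 CPM in label 1 (-0.91 ± 0.40). Fezf2, a zinc finger factor of early radial glia and of deep-layer neurons, had 64.32 and 82.9 CPM in label 12, against 148.5 and 192.3 CPM in label 1 (-1.21 ± 0.42). For Emx1 and Fezf2 the highest label 12 value was below the lowest label 1 value.

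Neurogenic genes leaned towards label 1, on few molecules. Of the 22 listed genes of proneural and neurogenic division 9 were tested, 6 were below and 2 above label 1 in both samples, and the median log2 difference was -0.51. Neurog2, the proneural factor of cortical progenitors, had 48.24 and 94.74 CPM in label 12, against 111.1 and 174.9 CPM in label 1 (-0.98 ± 0.43). Its E14.5 value was 3 UMIs in 20 cells, and the ratio was 0.43 at E14.5 (0.09 to 1.31) and 0.54 at E15.5 (0.26 to 1.10), so neither interval excluded equal levels. All 5 tested genes of the intermediate progenitor list, Neurog2, Btg2, Gadd45g, Elavl4 and Hes6, were below label 1 in both samples, with a median of -0.98. Elavl4, an RNA-binding protein of newborn neurons, had 80.4 and 53.29 CPM in label 12, against 180.4 and 122.4 CPM in label 1 (-1.18 ± 0.45). Eomes, the T-box factor that defines intermediate progenitors, had 0 and 17.76 CPM in label 12, against 53.89 and 26.23 CPM in label 1, which was too low to be tested. Lpar1, a receptor for lysophosphatidic acid, had 16.08 and 112.5 CPM in label 12, against 136.4 and 236.1 CPM in label 1 (-1.42 ± 0.43). Its label 12 value at E14.5 was 1 UMI.

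Transcripts of projection neurons were present at low levels in both labels. The 18 listed markers summed to 466.3 CPM at E14.5 and 355.3 CPM at E15.5 in label 12, against 646.6 and 856.8 CPM in label 1, and 2 of the markers had 0 UMIs in all 4 sums. Only 3 were tested, and of these Neurod6 and Map2 were below label 1 in both samples and Gap43 was not. A doublet caller marked 0 cells of label 12 in either sample, 8 of the 500 cells of label 1 at E14.5 and 0 at E15.5. The part of neuronal RNA in the lower Neurog2, Elavl4 and Fezf2 values of label 12 was not tested. Markers of endothelial and mural cells, microglia, Cajal-Retzius cells, ependymal cells and the cortical hem had no member past the filter, and each of these lists summed to at most 128.6 CPM in any of the 4 sums. Erythroid markers summed to 48.24 and 35.53 CPM in label 12, against 141.9 and 34.97 CPM in label 1.

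Genes of the cell cycle lay above label 1 in label 12 beside the differences above. Other deposited labels of the series have the working names of S-phase and mitotic radial glia, and their cells are in neither group here. Label 1 therefore need not hold all cycling radial glia, and the part of the labelling in these lists was not tested. Of 47 S phase genes 35 were tested, 25 were above label 1 in both samples and 0 below in both, with a median log2 difference of 0.32 and none 2-fold apart in both. They summed to 10190 and 9326 CPM in label 12, against 7782 and 7266 CPM in label 1. The G2 and M phase list had 21 of 53 members tested, 11 above and 1 below in both samples and a median of 0.27. Of these, 2 were at least 2-fold higher in both samples, Ube2c and Ckap2l, against 0.901% of all tested genes, and each had at most 14 UMIs in the label 12 sums. Its sums were 6738 and 6419 CPM in label 12, against 5458 and 5832 CPM in label 1. Ccnd1, a cyclin of the G1 phase, went both ways, with 176.9 and 148 CPM in label 12, against 117.7 and 183.6 CPM in label 1 (0.10 ± 0.38). The part of cycling cells, and that of the greater depth of label 12 cells, in the other differences was not tested.

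Across all 3439 tested genes, 31 were at least 2-fold higher in label 12 in both samples (0.901%) and 29 at least 2-fold lower (0.843%), with 5 CPM added to each level. Within E14.5 alone the rule took 151 genes as higher (4.39%) and 314 as lower (9.13%), and within E15.5 alone 207 (6.02%) and 148 (4.3%). In the opposite direction, 10 genes were 2-fold higher at E14.5 and 2-fold lower at E15.5, and 11 the reverse. Without regard to size, 909 genes were higher and 899 lower in both samples. Low counts fill much of both sets: 20 of the 31 higher genes and 29 of the 29 lower genes had at most 5 UMIs in at least 1 of the 4 sums. E14.5 replicate 2, which the comparison did not use, had 9 cells of label 12 and 46 of label 1. Its cells got their labels from the same clustering, so its values are a description and not an independent check. Its library, E14_2.2, also shares part of its name with E14_2.1 of the compared sample. There, 24 of the 31 higher genes were higher and 19 of the 29 lower genes were lower in label 12, while over all tested genes 1607 were higher and 1826 lower.

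**Figure D3:**
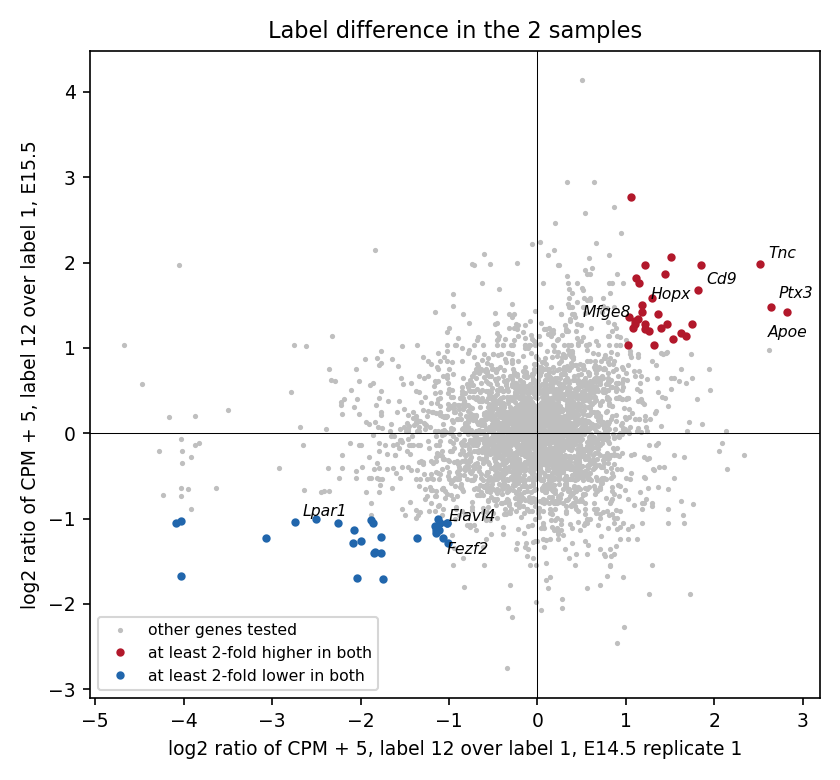
Each dot is 1 of the 3439 tested genes, placed by the log2 ratio of CPM plus 5 of label 12 over label 1 at E14.5 (x axis) and at E15.5 (y axis). Red dots are the 31 genes at least 2-fold higher and blue dots the 29 at least 2-fold lower in both samples; most genes form a cloud around 0.

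With labels from the same clustering, single values from replicate 2, without TMM scaling, showed the same split for the leading genes. Tnc was at 669.6 CPM in label 12 and 69.12 CPM in label 1, Hopx at 401.8 and 103.7 CPM, and Apoe at 214.3 and 48.39 CPM. Cd9 was at 294.6 CPM in label 12, on 11 UMIs, and at 27.65 CPM in label 1. Fabp7 was at 6428 CPM in label 12 and 2958 CPM in label 1. Fezf2 stood at 53.57 CPM in label 12 and 221.2 CPM in label 1, and Elavl4 at 53.57 and 179.7 CPM. Emx1, in contrast, was at 214.3 CPM in label 12 and 200.5 CPM in label 1, so its lower level in label 12 was not seen in this sample. Pax6 was at 267.8 CPM in label 12 and 483.9 CPM in label 1, the reverse of its order in the compared samples.

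Stage was then read with the label held fixed. Between E15.5 and E14.5, 404 genes were at least 2-fold higher (11.7%) and 267 at least 2-fold lower (7.76%) within label 12, and 127 (3.69%) and 183 (5.32%) within label 1. In both labels at the same time, 47 genes were 2-fold higher (1.37%) and 44 lower (1.28%). These counts have 1 sample per stage and no test, and the small label 12 sum at E14.5 (60401 UMIs) widens the ratios within that label. Zbtb20 was 1.53 log2 units higher at E15.5 in label 12 and 1.32 in label 1, and the log2 ratio of Hes5 was -1.16 in label 12 and -1.30 in label 1. Tnc was 0.61 log2 units higher at E15.5 in label 12 and 1.15 in label 1. The same ratio of Hopx was 0.14 in label 12 and -0.17 in label 1, so these 2 stages differed less than the labels. Apoe moved in opposite directions, by -0.92 in label 12 and 0.48 in label 1. For Tnc and Apoe the step in label 12 depended on the E14.5 sample. Without TMM scaling, Tnc in label 12 was at 669.6 CPM in E14.5 replicate 2 and at 550 CPM at E15.5. Apoe was at 214.3 and 212 CPM in the same 2 sums.

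A test over samples was possible within label 1, whose sums at E10.5, E12.5, E14.5 (both replicates) and E15.5 each held at least 20 cells. The slope on embryonic day was fitted with edgeR's quasi-likelihood test over 3545 genes; at an adjusted p under 0.05, 40 genes passed (1.13%), of which 27 rose (0.762%) and 13 fell (0.367%). It shares the label 1 sums of E14.5 and E15.5 with the comparison of labels, so the values are set side by side only. Membership of label 1 also came from the clustering on expression. A slope therefore describes the cells left under that label, and the part of the labelling in the slopes was not tested. Nothing in the labels says that the samples came from separate litters. Only E14.5 has 2 samples, so a p-value here rests largely on how far the 5 samples lie from a straight line over stage. The fit also borrows dispersion across genes, so this p-value does not measure the spread between embryos. Of the 41 cells at E10.5, 7 had over 2% of their UMIs from haemoglobin genes.

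Among the factors that label 12 and label 1 shared, several rose with stage inside label 1. Zbtb20 was at 0, 170.3, 411.9, 584.2 and 1054 CPM in the order of the samples just named, a slope of 0.97 ± 0.12 log2 units per day (SE, edgeR adjusted p = 0.003624). Nfia was at 26.86, 214.3, 433.9, 346.7 and 665.9 CPM (0.65 ± 0.10, edgeR adjusted p = 0.01073). Nfib was at 53.72, 652, 1421, 1040 and 1551 CPM (0.70 ± 0.12, edgeR adjusted p = 0.02059). All of them were lowest at E10.5 and highest at E15.5. In the list of gliogenic transcription factors, 5 of 14 tested genes rose within label 1 and 0 fell. The calls of Nfia and Nfib were lost when E10.5 was left out, with slopes of 0.49 and 0.40 without it.

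The genes that set label 12 apart rose within label 1 in part. Tnc was at 0, 2.256, 57.5, 64.19 and 134.9 CPM (slope 1.81 ± 0.28, edgeR adjusted p = 0.009882). Even the highest of these label 1 values, at E15.5, was below the 369.8 CPM of label 12 at E14.5. As the clustering used the expression of these cells, that distance is a description. Mfge8 was at 0, 36.1, 128.6, 256.8 and 193.9 CPM (0.96 ± 0.18, edgeR adjusted p = 0.02791), and its call was lost without E12.5 or without E14.5 replicate 1 (slopes 0.82 and 0.99). Fabp7 was at 147.7, 1895, 2483, 2748 and 5479 CPM (0.76 ± 0.13, edgeR adjusted p = 0.01912). Aldoc was at 13.43, 324.9, 830.2, 622.7 and 817.7 CPM (0.72 ± 0.13, edgeR adjusted p = 0.027). Without E10.5 the calls of Fabp7 and Aldoc were lost, at slopes of 0.43 and 0.46, and that of Aldoc was also lost without E14.5 replicate 1, at a slope of 0.70. Hopx did not pass, at 26.86, 53.02, 131.7, 96.29 and 118 CPM (0.48 ± 0.13, edgeR adjusted p = 0.1011). Slc1a3 did not pass either (0.53 ± 0.12, edgeR adjusted p = 0.06093). Apoe and Cd9 did not pass the filter on low counts of this fit and have no slope. In the same order, Apoe was at 13.43, 12.41, 52.28, 44.94 and 75.87 CPM. Cd9 was at 13.43, 10.15, 61.69, 25.68 and 25.29 CPM.

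Hmga2, a chromatin protein of early neural stem cells, fell within label 1, with 617.7, 126.3, 12.55, 19.26 and 25.29 CPM (slope -1.26 ± 0.12, edgeR adjusted p = 0.0008378). In the comparison of labels it was near its floor, with 0 and 11.84 CPM in label 12, against 13.2 and 26.23 CPM in label 1. Sox2, Pax6, Sox9, Hes5, Emx1, Neurog2 and Ccnd1 did not pass the slope test. Neurog2 had a slope of 0.37 ± 0.13 and Emx1 one of 0.15 ± 0.10, both above 0 while their label differences were below 0.

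**Figure D4:**
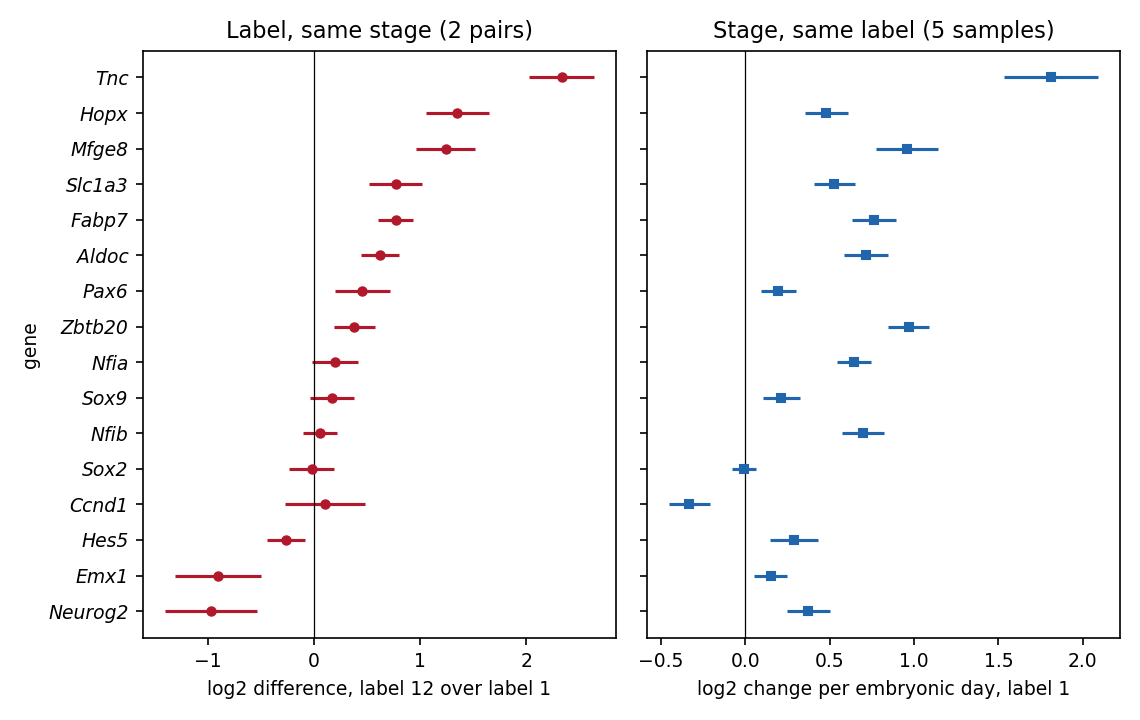
Left, log2 difference of label 12 over label 1 at the same stage (2 pairs); right, log2 change per embryonic day within label 1 (5 samples), for the same 16 genes down the page. Points are fitted values and bars are ± 1 SE of the fit. Nfib and Nfia lie near 0 on the left and above 0 on the right, and Tnc is the highest of the 16 genes on both sides. Apoe, with a label difference of 2.44, has no slope and is not shown. The panels have different units, a difference and a change per day, and share label 1 sums.

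Leading genes were detected in part of the label 12 cells, at about 1 UMI per cell or a few, so a cell without a UMI need not lack the transcript. Tnc had a UMI in 11 of 20 cells at E14.5 and 28 of 35 at E15.5 in label 12, against 40 of 500 and 12 of 51 in label 1. Hopx and Apoe were found together in 9 of the 20 label 12 cells at E14.5 and in 8 of 35 at E15.5, against 6 of 500 and 4 of 51 label 1 cells. Since label 12 cells are deeper, each cell was also thinned to 1000 UMIs, which left out 2 and 1 cells of label 12 and 127 and 12 cells of label 1 that were shallower. After thinning, Tnc was found in 22.2% of label 12 cells at E14.5 (exact interval 6.41 to 47.6%) and 47.1% at E15.5 (29.8 to 64.9%), against 5.63% (3.52 to 8.48%) and 20.5% (9.30 to 36.5%) of label 1 cells. Neurons of deposited labels 2 and 5, which should lack it, gave 0 of 474 and 0 of 178 cells with Tnc at that depth, so their share was at most 0.633% and 1.69% at 3 cells. Their median depth before thinning was 1726 UMIs at E14.5 and 2437 UMIs at E15.5.

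At least 2 of the 5 genes Tnc, Hopx, Apoe, Mfge8 and Cd9 were found in 4 of 18 thinned label 12 cells at E14.5 (22.2%, 6.41 to 47.6%), against 21 of 373 label 1 cells (5.63%, 3.52 to 8.48%). At E15.5 the numbers were 18 of 34 label 12 cells (52.9%, 35.1 to 70.2%), against 3 of 39 label 1 cells (7.69%, 1.62 to 20.9%). No neuron of either sample had 2 of them. The intervals of label 12 and label 1 overlapped at E14.5 and not at E15.5. The 5 genes are among those that differed between the clusters, so the shares describe how the labels were spread over cells and do not test them. After thinning, Neurog2 was found in 0 of 18 label 12 cells at E14.5 and 2 of 34 at E15.5 (0.72 to 19.7%), against 32 of 373 and 3 of 39 label 1 cells, and in 10 of 474 and 2 of 178 neurons. The intervals of label 12 overlapped those of label 1 and of the neurons in both samples, so the level of Neurog2 in label 12 was not resolved at this depth. Without thinning, Tnc and Neurog2 were in the same cell in 0 of 20 label 12 cells at E14.5 and 6 of 35 at E15.5.

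Glial markers with no UMI in label 12 at E14.5 and E15.5 were found in some label 12 cells of the later samples. Without TMM scaling, Olig1 in label 12 was at 0 CPM in both E14.5 samples and at E15.5, at 176.4 CPM at E16.5 (95% exact Poisson interval 116 to 257) and at 820.5 CPM at E18.5 (744 to 903). Olig2 was at 0 in the same 3 samples, at 91.45 CPM at E16.5 and 428.7 CPM at E18.5, and Egfr at 0, 26.13 and 198.8 CPM. These sums came from a minority of the cells: Olig1 had a UMI in 4 of 35 cells at E16.5 and 77 of 162 at E18.5, Olig2 in 4 of 35 and 65 of 162, and Egfr in 1 of 35 and 46 of 162. The doublet caller marked 3 of the 35 cells at E16.5 and 1 of the 162 at E18.5. Ventral genes were found there too: 1 label 12 cell at E16.5 and 13 at E18.5 had Dlx or Gad UMIs, and at E18.5 Gsx2 had 7 UMIs (13.64 CPM) and Dlx2 had 11 (21.44 CPM). The part of these cells in the glial values was not tested.

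Taking 3 counts in the sum of a sample as the floor, Olig1 in E18.5 label 12 was at least 16.5-fold higher than in E14.5 replicate 1 label 12 and at least 47.7-fold higher than in E15.5 label 12. The bounds were 8.63-fold and 24.9-fold for Olig2, 4.002-fold and 11.6-fold for Egfr, and 2.16-fold and 6.24-fold for Pdgfra. All of these bounds leave out the counting error of the E18.5 value. Sox10, at 21.44 CPM at E18.5 on 11 UMIs (Poisson interval 10.7 to 38.4), was below the floor of E14.5 replicate 1. Its value was 1.25-fold above the floor of E15.5 (17.19 CPM), but its interval reached below that floor. Tnc, in contrast, was present from the start, at 380.8 CPM (E14.5 replicate 1), 669.6 CPM (E14.5 replicate 2), 550 CPM (E15.5), 653.2 CPM (E16.5) and 1142 CPM (E18.5). Hopx was at 331.1, 401.8, 343.7, 378.9 and 711.3 CPM in the same order, and Apoe at 430.5, 214.3, 212, 489.9 and 1378 CPM. The E16.5 and E18.5 samples had only 3 and 5 label 1 cells, so no same-stage comparison was made there.

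**Figure D5:**
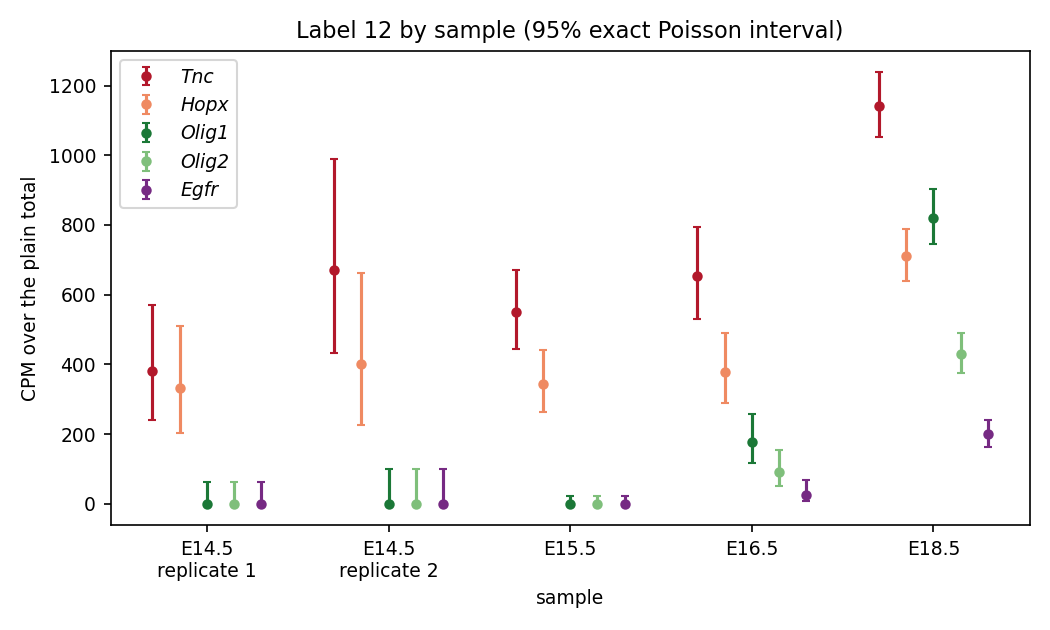
CPM over the plain UMI total of label 12 cells (y axis) in the 5 samples that hold them (x axis, young to old), for Tnc, Hopx, Olig1, Olig2 and Egfr. Points are sums over cells and bars are 95% exact Poisson intervals of counting; Olig1, Olig2 and Egfr were at 0 up to E15.5, where Tnc was at 550 CPM, and Olig1 reached 820.5 CPM at E18.5.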

How the data were processed

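The submitters deposited a matrix of raw UMI counts per gene and cell (21862 genes, 10261 cells, 12 libraries, 7 samples) with a cluster label for each cell (19 labels). Drop-seq protocol and tools v3.1 are named per the labels' protocols, and Seurat 3.1.5 and mm10 per the submitters' processing notes; aligner and cell filters are not given in the sources used here. The lowest number of genes in a cell was 501 and the highest mitochondrial share 9.996%; all cells were kept. Gene coordinates are from a GENCODE annotation of mm10, matched by symbol.

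Cells were assigned to samples by library prefix. Library E14_2.1 was counted with the larger E14.5 sample; the labels list a library E14_2 there, and this assignment is inferred. Labels 12 and 1 come from the submitters' clustering of the same cells. Members, gene lists and the genes always named were chosen with earlier results of these data known. Genes are named if called in the comparison of labels (up to 12 per direction with a mean of at least 50 CPM), or if on a list of 25 lineage and stem cell genes; Mfge8, Cd9, Ptx3, Tgfb2, Vcam1, Mest, Fezf2, Elavl4, Lpar1 and other list members given as examples were chosen after their values were seen.

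UMI counts were summed per label and sample and fitted with edgeR 4.0.16 in R 4.3.3 (filterByExpr with a minimum count of 10, TMM, glmQLFit and glmQLFTest, sample as a block, Benjamini-Hochberg, threshold 0.05). The ratio rule added 5 CPM. The block follows from the design, since both labels of a pair come from 1 sample; over 3439 genes the E15.5 minus E14.5 differences of the 2 labels correlated with r = 0.287, and over 281 genes with a mean of at least 500 CPM with r = 0.705. The stage slope used samples with at least 20 cells of label 1. Doublets were called per library with Scrublet (scanpy 1.11.5, expected share 5%): 95 of all cells (0.926%), kept in the main fit. The scripts were tested on simulated counts. Alternatives were DESeq2 1.42.0 and its size factors, no filter, no block, sums per library, cell filters, thinning, other fold rules and samples left out; E14.5 replicate 2 as a further pair was added after seeing the data.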

Additional observations from a re-analysis of the deposited data

Results flagged for a closer look

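For 4 of the named genes, the log2 ratio of label 12 over label 1 (CPM plus 5) had opposite signs in the 2 samples. It was -0.13 at E14.5 and 0.41 at E15.5 for Nfia, and -0.01 and 0.12 for Nfib. For Sox2 it was -0.27 at E14.5 and 0.20 at E15.5, and for Ccnd1 it was 0.57 and -0.30. With 1 sample per stage, the difference between the stages was not tested for any of them.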

How the results depend on the processing

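Label differences. The number of genes called higher in label 12 (2 with the sample as a block, 0 lower) was 5 with no replicate block, 7 with DESeq2 size factors, 1 with the DESeq2 Wald test, 9 with the 4 libraries as blocks, 5 without library E14_2.1, 7 with cells of at least 1000 UMIs, 1 with cells of at most 5% mitochondrial UMIs, 7 without cells holding Dlx or Gad UMIs and 0 with thinned sums. E14.5 replicate 2 as a further pair, chosen after seeing the data, gave 15 higher and 1 lower. Hopx, Fabp7 and Mfge8 passed in several of these settings, and Cd9, Tgfb2 and Mest with the further pair. The 31 genes higher and 29 lower by 2-fold in both samples became 3 and 3 at 3-fold, 14 and 12 with 20 CPM added, 9 and 1 with at most 5% mitochondrial UMIs (6 label 12 and 8 label 1 cells at E15.5), 12 and 11 with thinned sums, and 12 and 6 with the further pair. With 1 sample left out they ranged from 151 to 207 higher and from 148 to 314 lower, since the rule then asks for 1 sample only. Taking all samples with at least 20 cells of both labels left the same 2 samples and gave no further value.

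Reversals. Sox9 was at -0.1364 and Nfib at -0.01786 with at most 5% mitochondrial UMIs, and Nfib at -0.0341 with no filter. Sox2 was at 0.000825 with the 4 libraries, 0.08021 without library E14_2.1, 0.05051 with at most 5% mitochondrial UMIs and 0.1253 with the further pair. Ccnd1 was at -0.2833 without that library, -0.2555 with thinned sums and -0.1517 with the further pair. The cause was not tested.

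Stage slope. The 27 genes that rose and 13 that fell became 119 and 128 with no filter on low counts, and 24 fell with the DESeq2 Wald test. With 1 sample left out, 13 to 39 rose and 5 to 23 fell, lowest without E14.5 replicate 1. With 1 sample left out, the slope of Sox9 ranged from -0.06535 (without E10.5) to 0.355, that of Pax6 from -0.0137 (without E10.5) to 0.287, and that of Sox2 from -0.08029 to 0.01342 (above 0 without E12.5, at 0.004213, or without E14.5 replicate 2). With cells of at least 1000 UMIs the Sox2 slope was 0.03642. Depth limits the low genes: 1 UMI of label 12 at E14.5 was about 16.08 CPM.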

Other observations

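Other gene lists differed in their medians, against -0.004303 over all genes tested. The 7 tested genes of the Notch pathway had a median log2 difference of label 12 over label 1 of -0.09, with 1 above and 3 below label 1 in both samples. The 4 tested genes of receptor tyrosine kinase signalling had a median of -0.02, and the 4 of G1 cyclins and CDK inhibitors one of -0.02. Of 14 tested genes of cholesterol and lipid synthesis, which supply membrane for dividing cells, 9 were above and 2 below label 1 in both samples, with a median of 0.20. Lss, an enzyme of sterol synthesis, went against them, with 48.24 CPM at E14.5 and 53.29 CPM at E15.5 in label 12, against 106.7 and 131.1 CPM in label 1. Its E14.5 value in label 12 was 3 UMIs. Immediate early genes, which also respond to dissociation, had 6 tested members, 3 above and 2 below label 1 in both samples and a median of 0.38. They summed to 2653 CPM at E14.5 and 2262 CPM at E15.5 in label 12, against 1709 and 2072 CPM in label 1.

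Of 12 heterochronic genes, which are high in young progenitors, 3 were tested, 2 of them were above label 1 in both samples and none below in both. Their median log2 difference was 0.73, and the list of 12 summed to 434.2 CPM at E14.5 and 420.4 CPM at E15.5 in label 12, against 437.7 and 393.4 CPM in label 1. H19, an imprinted non-coding RNA, had 112.6 and 88.82 CPM in label 12, against 25.29 and 61.2 CPM in label 1.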
